A study of Mustela putorius furo and Mus musculus with 4 samples.

Results

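Dividing Eomes cells of the mouse cortex were examined, defined cell by cell as cells with at least 2 Eomes UMIs and a UMI in at least 3 of the 7 mitotic genes Mki67, Top2a, Cdk1, Birc5, Ube2c, Cenpf and Nusap1. A UMI (unique molecular identifier) marks 1 captured transcript, so a UMI count is a count of molecules. Among 17707 mouse cells with 750 to 5000 detected genes, 574 met the rule, 481 in the control library and 93 in the Smo-cKO library. Eomes, also called Tbr2, is the T-box transcription factor that marks intermediate progenitor cells (IPCs) of pyramidal neurons (PyNs). Cortical radial glial (RG) cells give rise to IPCs, which divide mostly away from the ventricle to make pyramidal neurons. Neurog2 and Insm1 act early in this neurogenic series, and Neurod1, Neurod2, Neurod6 and Tbr1 act as the daughter cells turn into neurons. Smo is the membrane protein that passes on Sonic Hedgehog (SHH) signaling, with Gli1 and Ptch1 among its usual target genes.

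The libraries were made from cortex at embryonic day 18.0, from cells that took up CellTrace Yellow, a dye injected into the lateral ventricle at embryonic day 17.0, and that were then sorted and put through 10x Genomics droplet sequencing. Smo-cKO cortex carried hGFAP-Cre and Smo F/F, and the littermate control is named Smo F/F in the paper and wild type in the sample labels. hGFAP-Cre acts in RG cells, so Smo-cKO is a deletion in RG cells and their progeny, and cells that Cre never reached may be among the sorted cells. Each genotype had 1 library. No test between genotypes was therefore made, intervals cover counting error only, and a difference between genotypes cannot be told apart from one between embryos or preparations. Only a number at the end of each barcode separates the libraries, and it was matched to a genotype by how many cells carried it, which the paper states for each genotype.

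After the limit on genes, 10498 control cells with 51657121 UMIs and 7209 Smo-cKO cells with 42057782 UMIs remained. The libraries shared 28 barcode sequences, and 1 control dividing Eomes cell carried one of them. Control cells held both Xist, which is expressed from the inactive X chromosome, and Y-linked transcripts, whereas Smo-cKO cells held Y-linked transcripts and almost no Xist, so the control library mixed female and male embryos and the Smo-cKO library did not. In 43 of 481 control dividing Eomes cells (8.94%), Xist and Y-linked UMIs were found together. The doublet caller Scrublet marked 722 control cells (6.88%). Among them were 129 of the 481 control dividing Eomes cells (26.8%), a far higher share than over the whole library. It marked only 1 Smo-cKO cell (0.0139%), too few for its calls to be used in that library. The 7% of Smo-cKO cells with the highest Scrublet scores held 31 of the 93 Smo-cKO dividing Eomes cells. No cell was left out for this in the values below, and where a named gene lost 2-fold without the marked or highest scoring cells, that value is given beside it. Prm1, a protamine gene of sperm chromatin whose end sequence is also used in some transgenes, had 208 UMIs in 55 of 93 Smo-cKO dividing Eomes cells and 0 UMIs in the 481 control cells.

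Dividing Eomes cells were a smaller part of the Smo-cKO library. They made up 14.0% of the 3427 control Eomes cells (cells with at least 2 Eomes UMIs; exact Clopper-Pearson 95% interval 12.9 to 15.2%) and 4.64% of the 2006 Smo-cKO Eomes cells (3.76 to 5.65%). Of all cells, they were 4.58% (4.19 to 5%) in control and 1.29% (1.04 to 1.58%) in Smo-cKO. Of all cells with at least 3 of the 7 mitotic genes, they were 23.1% of 2086 in control (21.3 to 24.9%) and 12.2% of 765 in Smo-cKO (9.93 to 14.7%). These shares describe what the rule selects and carry no test.

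Eomes cells without any of the 7 mitotic genes, called non-dividing Eomes cells here, took nearly the same share of each library, 23.2% (22.4 to 24.0%) in control and 22.7% (21.7 to 23.7%) in Smo-cKO. Dividing RG-like cells, with at least 3 of the 7 genes, at least 4 of 8 RG markers and no Eomes UMI, made up 10.1% of control cells (9.51 to 10.7%) and 6.95% of Smo-cKO cells (6.37 to 7.56%). The control to Smo-cKO ratio of the shares of Eomes cells that divide was 3.03. The median dividing Eomes cell held 7620 UMIs in control against 9920 in Smo-cKO, and the median non-dividing one 4032 against 5082. With each cell thinned to 2900 UMIs before the rule, the share over 20 draws averaged 8.20% in control and 1.68% in Smo-cKO, a ratio of 4.88. Over the 12 other settings tried, this ratio ran from 2.47 to 4.88. The lowest came without the cells that Scrublet marked, which took out 129 control and 0 Smo-cKO dividing Eomes cells. Next was 2.54, with at least 1 Eomes UMI.

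The mixture of sexes could be separated in part. Among Eomes cells with a Y-linked UMI and no Xist UMI, 246 of 1607 control cells (15.3%, 13.6 to 17.2%) and 71 of 1280 Smo-cKO cells (5.55%, 4.36 to 6.95%) divided. Control Eomes cells with Xist and no Y-linked UMI gave 14.1% (11.1 to 17.5%), so the intervals of both sexes overlapped in control. The Smo-cKO share was also lower among cells with Y-linked transcripts alone. Eomes cells with neither kind of UMI were shallower, with a median of 3973 UMIs in control against 4731 with Y-linked UMIs alone. Of these shallower cells 10.7% divided in control and 3.04% in Smo-cKO. Control Eomes cells with both kinds were deeper (median 7953 UMIs), and 23.8% of them divided. The split thus also follows depth, and whether the mixture of sexes bears on the share was not tested.

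**Figure D1:**
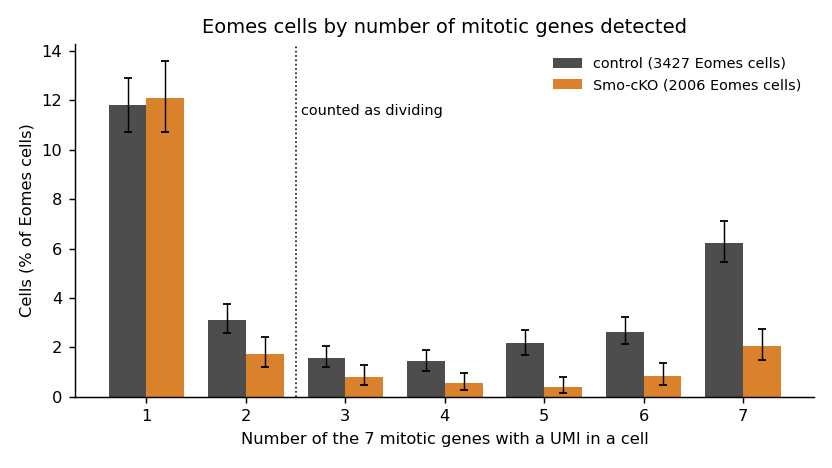
Share of Eomes cells (y axis, % of the Eomes cells of a library, with exact 95% intervals) by the number of the 7 mitotic genes with a UMI (x axis), for control (gray) and Smo-cKO (orange). Cells with none of the 7 genes (71.1% of control, 81.5% of Smo-cKO) are not drawn, bars for 1 gene are alike (11.8% and 12.1%), and all 7 genes were found in 6.24% of control and 2.04% of Smo-cKO Eomes cells.

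The plot of Eomes cells by mitotic genes shows more cells at all 7 genes than at any number from 3 to 6. Of the 481 control dividing Eomes cells, 214 (44.5%) held all 7 genes and 54 (11.2%) held just 3, and of the 93 Smo-cKO cells 41 (44.1%) held all 7 and 16 (17.2%) held 3. Just outside the limit, 107 control and 35 Smo-cKO Eomes cells held 2 of the genes. Their summed level of G2 and mitosis genes outside the rule was 2842 CPM in control and 2433 CPM in Smo-cKO (CPM, UMIs per 1000000 UMIs of the summed cells), against 5503 and 5017 CPM just inside, at 3 genes. On the other limit, 260 control and 71 Smo-cKO cells with at least 3 mitotic genes held a single Eomes UMI. The 8 RG markers summed to 1610 and 2342 CPM in these cells, against 1011 and 1943 CPM just inside, at 2 Eomes UMIs (150 and 35 cells). The median dividing Eomes cell held 3 Eomes UMIs in both libraries, and the highest held 21 in control and 19 in Smo-cKO.

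The label of intermediate progenitors was checked with genes the rule did not use. Neurog2 had a UMI in 67.2% of control and 74.2% of Smo-cKO dividing Eomes cells, against 6.73% and 10.7% of PyN-like cells (median 3417 and 4198 UMIs). Insm1, a zinc finger factor of delaminating progenitors, was found in 85.4% and 90.3%, although PyN-like cells also showed it in 45.9% and 62.3%. Ppp1r17, listed as an IPC marker, was at or near 0, with 2 control UMIs and 0 in Smo-cKO. Neurod4 was found in 14.8% and 7.53%, against 0.12% and 0.277% of PyN-like cells, and Neurog1 was scarce. Sstr2 was found in 62.8% and 47.3%, against 49.4% and 53.8% of PyN-like cells. Pax6 or Sox2, transcription factors of progenitors, was found in 87.7% and 92.5%. Dividing RG-like cells showed Pax6 or Sox2 in 96.3% and 95.4%, so these 2 genes do not tell IPCs from RG cells. Most of the cells therefore carry Neurog2 and Insm1, but the listed IPC markers did not all bear out the label. Ppp1r17 cannot be used for it here.

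RG genes remained detectable in many of them. At least 4 of the 8 RG markers were found in 166 of 481 control (34.5%) and 46 of 93 Smo-cKO dividing Eomes cells (49.5%), against 9.2% and 14.1% of non-dividing Eomes cells. With each cell thinned to 4000 UMIs the shares in dividing Eomes cells were 28.0% of 438 cells and 36.8% of 88 cells. At least 4 of 8 pyramidal neuron markers were found in 18.9% and 22.6%.

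Other cell types were rare among them but not absent in control. Inhibitory neuron markers (at least 2 of 8) were seen in 8 control and 1 Smo-cKO cell. At least 4 of 8 microglia markers were seen in 5 control cells and in 0 of the 93 Smo-cKO cells, where 3 counts, taken as the limit that a count of 0 allows, would be 3.23%. These 5 cells held 845 of the 852 microglia marker UMIs of control dividing Eomes cells, had a median of 19076 UMIs, and held 13 Eomes UMIs in all. The summed microglia markers were 209 CPM in control and 4.12 CPM in Smo-cKO dividing Eomes cells.

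The cell cycle genes outside the rule were far higher in dividing than in non-dividing Eomes cells of each library, which checks the rule and is not independent of it. Of 11213 genes with at least 50 UMIs, 610 were at least 2-fold higher in dividing cells in both libraries (5.44%) and 163 at least 2-fold lower in both (1.45%), together 6.89%, with 1 CPM added to every level and the genes of the rule left out. All 58 G2 and mitosis genes were among the higher ones, with a median log2 ratio of 5.16 in control and 5.44 in Smo-cKO, where the median over all genes was -0.06 and -0.09. Of 41 S phase genes 40 were higher, with medians of 2.34 and 2.75.

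The genes furthest above the non-dividing cells in both libraries were Ccna2, Cdca8, Hmmr, 2810417H13Rik, Aurkb, Prc1, Esco2, Spc25, Kif2c and Kif11. Ccna2, Hmmr, Aurkb, Esco2, Spc25, Kif2c and Kif11 had between 1 and 28 UMIs in the non-dividing cells of each library. They passed the filter through the dividing cells, where they are higher, so their place here is partly set by the filter. Ccna2, cyclin A2, stood at 201 CPM in control and 222 CPM in Smo-cKO dividing Eomes cells, against 1.32 and 1.17 CPM in the non-dividing ones. Aurkb, the kinase of the chromosomal passenger complex, stood at 128 and 139 CPM, against 0.706 and 0.533 CPM. Esco2, which acetylates cohesin during replication, stood at 91.9 and 88.5 CPM, against 0.0883 and 0.213 CPM from 1 and 2 UMIs. Between the libraries the 10 genes had ratios of Smo-cKO over control from 0.834 (Kif11) to 1.43 (Kif2c, 73.9 and 106 CPM) in the dividing cells.

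The genes furthest below were Tcp11l2, Gipr, 1600014C10Rik, Unc5a, Chrnb2, Ctsh, Rgs1, 4930578M01Rik, Rgs5 and Higd1b. Among them only Unc5a reached 50 UMIs in the dividing cells. The others passed the filter through the non-dividing cells, where they are higher, so their place here is partly set by the filter. Unc5a, a netrin receptor of growing axons, stood at 9.58 CPM in control and 11.3 CPM in Smo-cKO dividing cells, against 36.0 and 50.5 CPM in non-dividing cells. Chrnb2, a nicotinic receptor subunit, stood at 5.40 and 8.23 CPM, against 21.4 and 30.8 CPM. Rgs1, Rgs5 and Higd1b, which mark immune or mural cells, had between 0 and 4 UMIs in the dividing cells of either library.

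Neurogenic lists had medians below 0 for dividing over non-dividing Eomes cells and the RG list had medians above 0, with most neurogenic genes within 2-fold. Over 17 genes of the IPC and neurogenic list the median log2 ratio of dividing over non-dividing was -0.51 in control and -0.74 in Smo-cKO, with 1 gene past 2-fold lower in both libraries and 0 higher. Over 22 pyramidal neuron genes it was -0.71 and -0.97, with 3 lower and 0 higher. Over 20 RG and progenitor genes it was 0.98 and 1.12, with 8 higher and 0 lower. Insm1 went against its list, with 394 and 474 CPM in dividing cells and 217 and 338 CPM in non-dividing cells. Eomes itself, which the rule used, was lower in the dividing cells, at 480 and 395 CPM against 852 and 832 CPM. Both sets need at least 2 Eomes UMIs, but the non-dividing cells were shallower (median 4032 and 5082 UMIs, against 7620 and 9920). The same cutoff asks for a higher Eomes CPM in shallower cells, so this gap is partly set by the rule. Whether depth also moved the medians of the lists was not tested.

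Dividing Eomes cells were also compared with dividing RG-like cells, which were picked for RG markers and for the absence of Eomes UMIs. With the genes of the rule and the RG markers left out, 365 of 10690 genes were at least 2-fold higher in dividing Eomes cells in both libraries (3.41%) and 328 at least 2-fold lower (3.07%), together 6.48%. No S phase or G2 and mitosis gene was among them. Of 16 IPC and neurogenic genes 14 were higher, with a median log2 ratio of 2.22 in control and 2.57 in Smo-cKO, and of 22 pyramidal neuron genes 12 were higher, with medians of 1.38 and 1.61. Of 12 RG and progenitor genes that the rule for these cells had not used, 8 were lower, with medians of -1.46 and -1.17. Genes that move with Eomes or with the RG markers are partly set apart by how the cells were picked. Leaving out Eomes and the markers themselves does not remove this. Both sets were also picked by the same mitotic genes, so alike levels of cell cycle genes are partly set by the rule.

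The 10 genes furthest above dividing RG-like cells were Neurog2, Lrrn3, Sstr2, Slc17a6, Neurod4, Srrm4, Kif26b, Shf, Elavl2 and Cbfa2t3. Lrrn3, Neurod4, Kif26b and Cbfa2t3 had between 1 and 34 UMIs in the dividing RG-like cells of each library. They passed the filter through the dividing Eomes cells, where they are higher. Neurog2, the proneural factor of the dorsal cortex, had 258 CPM in control and 322 CPM in Smo-cKO dividing Eomes cells, and 17.3 and 10.9 CPM in dividing RG-like cells. Slc17a6, a vesicular glutamate transporter of excitatory neurons, had 68.5 and 45.3 CPM against 6.53 and 3.26 CPM. Srrm4, a neural splicing regulator, had 126 and 127 CPM against 13.9 and 9.57 CPM. All 3 were thus several times higher in the dividing Eomes cells of both libraries.

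The 10 genes furthest below were S100a4, Pmp22, Igfbp3, Retn, Daam2, Lfng, Car2, Slc7a11, Olig2 and Kcnk1. Among them only Pmp22, Lfng and Olig2 reached 50 UMIs in the dividing Eomes cells. The others passed the filter through the dividing RG-like cells, where they are higher. Retn had 23 and 56 UMIs there, in just 0.189% of control and 0.399% of Smo-cKO cells. Lfng, a glycosyltransferase that tunes Notch receptors, had 10.3 CPM in control and 11.3 CPM in Smo-cKO dividing Eomes cells, and 45.8 and 47.3 CPM in dividing RG-like cells. Olig2, a factor of glial and oligodendrocyte progenitors, had 22.6 and 13.4 CPM against 113 and 51.3 CPM. Pmp22, a membrane protein of glia, had 28.7 and 34.0 CPM against 132 and 168 CPM.

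Between the libraries, most genes of dividing Eomes cells lay within 2-fold. Of 8038 genes with at least 50 UMIs in the 574 cells together, 85 were at least 2-fold higher in Smo-cKO (1.06%) and 142 at least 2-fold lower (1.77%), together 2.82%, and the median log2 ratio of Smo-cKO over control was 0.01. The level of each gene rests on 4071821 UMIs in control and 971634 in Smo-cKO. Ratios below carry exact conditional binomial 95% intervals.

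**Figure D2:**
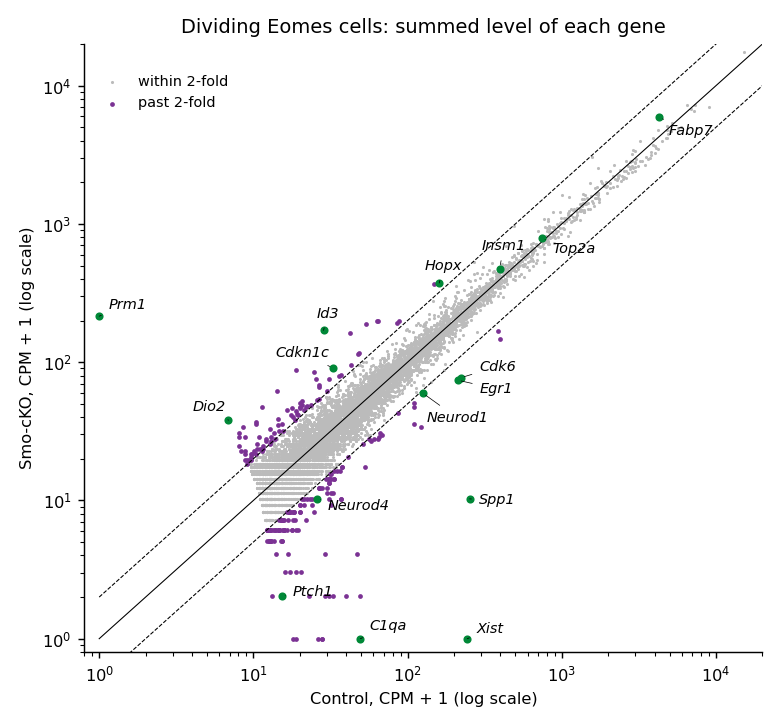
Level of 8038 genes summed over dividing Eomes cells, control (x axis) against Smo-cKO (y axis), both as CPM + 1 on log scales. Purple points lie past 2-fold (dashed lines) and labeled genes are green, with Prm1 (0 and 214 CPM) and Xist (243 and 0 CPM) on the axes, Id3, Dio2 and Hopx above the upper line and Cdk6, Egr1 and Neurod1 below the lower one.

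The genes with the largest ratio in favor of Smo-cKO were Prm1, Id3, Dio2, S100a6, P2rx4, Gm26737, Prrx2, Thrsp, Tenm1 and Aldh1a3. Prm1 was at least 291-fold higher, against a floor of 3 UMIs in control. Dio2, the deiodinase that activates thyroid hormone, had 24 UMIs in 20 control cells (5.89 CPM) and 36 UMIs in 18 Smo-cKO cells (37.1 CPM), a ratio of 6.29 (3.65 to 11). Thrsp, a thyroid hormone responsive gene, had 169 UMIs in 92 control cells (41.5 CPM) and 156 UMIs in 47 Smo-cKO cells (161 CPM), a ratio of 3.87 (3.09 to 4.84). Both of these genes were spread over many cells, as were the homeobox gene Prrx2 (7.61 and 32.9 CPM, ratio 4.33, 2.56 to 7.33) and the teneurin Tenm1 (7.12 and 29.8 CPM, ratio 4.19, 2.42 to 7.27).

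Prm1 was more widespread still, in 55 cells, and Id3 was found in 26 Smo-cKO cells. For the other 4 named genes, single cells held much of the Smo-cKO count. All 59 P2rx4 UMIs and all 45 Gm26737 UMIs of Smo-cKO lay in 1 cell each. S100a6, a calcium-binding protein, had 44 of its 85 Smo-cKO UMIs in 1 cell, and its log2 ratio of 2.22 was 0.81 without the 7% of cells with the highest Scrublet scores. Aldh1a3, an enzyme of retinoic acid synthesis, had 25 of 35. P2rx4 and Gm26737 are thus values of single cells, and P2rx4 was lower in Smo-cKO under 3 of the 15 other settings tried.

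The genes with the smallest ratio were Xist, C1qa, Maf, Ccl12, Cx3cr1, Spp1, C1qb, C1qc, Dqx1 and Dpysl4. Xist had 988 UMIs in 110 control cells and 0 in Smo-cKO, at least 78.6-fold lower against the floor. C1qa, C1qb and C1qc, which encode the complement protein C1q, and Cx3cr1, the fractalkine receptor, are microglial genes. Spp1, Ccl12 and Maf are also high in microglia. The 5 control cells with at least 4 microglia markers held 197 of 197 C1qa UMIs, 1016 of 1023 Spp1 UMIs, 108 of 109 Ccl12 UMIs and 71 of 109 Maf UMIs. Without cells holding at least 2 microglia or inhibitory neuron markers (13 control and 1 Smo-cKO), C1qa had 0 UMIs in both libraries, and Spp1 was higher in Smo-cKO, with a log2 ratio of 2.03 from 7 and 9 UMIs.

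Dpysl4 and Dqx1 complete the 10. Dpysl4, of the collapsin response mediator family, had 69 UMIs in 57 control cells and 0 in Smo-cKO, at least 5.49-fold lower. It was also lower in non-dividing Eomes cells, with 17.9 CPM in control and 4.58 CPM in Smo-cKO, and in dividing RG-like cells, with 30.7 and 1.91 CPM. Dqx1 had 57 of its 73 control UMIs in 1 cell.

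**Figure D3:**
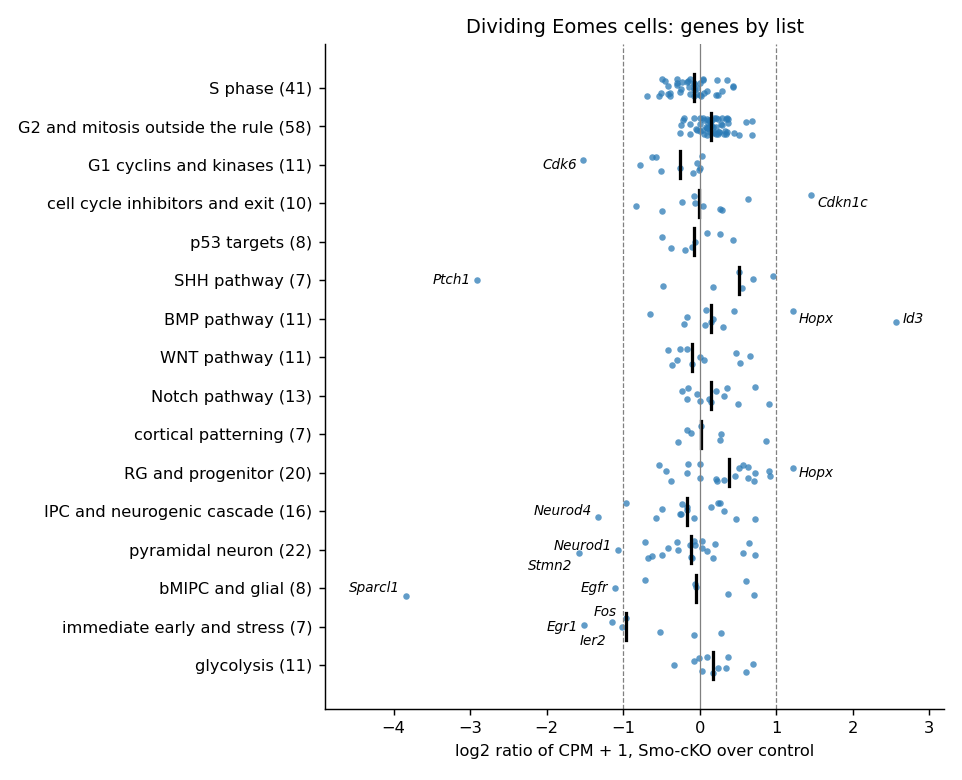
Log2 ratio of CPM + 1, Smo-cKO over control (x axis), in dividing Eomes cells, for the genes of 16 lists (rows, with the number of genes that had at least 50 UMIs). Points are genes, black bars are medians, dashed lines mark 2-fold, and genes past them are named. S phase and G2 and mitosis genes all lie within 2-fold, with medians of -0.08 and 0.15.

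The replication and mitotic genes did not pass 2-fold in either direction. The rule picks cells by mitotic genes in both libraries, so alike levels of these lists are partly set by it. Of 41 S phase genes 0 were past 2-fold and the log2 ratios ran from -0.69 to 0.43. Of 58 G2 and mitosis genes 0 were past 2-fold, with 47 above 0 and 11 below. Dut, the dUTPase that keeps uracil out of DNA, had 762 CPM in control and 527 CPM in Smo-cKO (ratio 0.692, 0.629 to 0.760). Kpna2, an importin, had 172 and 278 CPM (ratio 1.61, 1.40 to 1.86), and Ndc80, of the outer kinetochore, had 34.6 and 56.6 CPM (ratio 1.63, 1.17 to 2.25).

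The same lists summed over all Eomes cells, dividing or not, were lower in Smo-cKO. S phase genes summed to 1748 CPM in control and 988 CPM in Smo-cKO, and G2 and mitosis genes to 4628 and 2685 CPM. Within dividing Eomes cells the sums were 4136 and 3663 CPM for S phase and 15685 and 17304 CPM for G2 and mitosis. In cells with all 7 mitotic genes, G2 and mitosis genes reached 20865 CPM in control and 24411 CPM in Smo-cKO. The sums of the libraries were closer to each other within dividing cells than over all Eomes cells. Dividing cells are picked by mitotic genes that move with these lists, so this closeness is partly set by the rule. The sums over all Eomes cells also reflect the smaller share of dividing cells in Smo-cKO.

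Among the G1 cyclins and kinases, which act before replication, Cdk6 stood apart. Cdk6, the kinase partner of D-type cyclins, was counted at 898 UMIs in 368 of 481 control cells (221 CPM) and 74 UMIs in 46 of 93 Smo-cKO cells (76.2 CPM), a ratio of 0.345 (0.269 to 0.438). The share of cells with a UMI was 76.5% and 49.5%, and 55.9% and 26.3% once thinned to 4000 UMIs. PyN-like cells, which have left the cycle, showed it in 15.4% and 4.61%. Cdk6 was the only 1 of 11 genes of the list past 2-fold (2.82% over all genes). It stayed past 2-fold in all 15 other settings, at log2 ratios between -1.61 and -1.29.

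Cdk6 was also lower in the cells beside them. Non-dividing Eomes cells had 198 CPM in control and 49.5 CPM in Smo-cKO (ratio 0.25, 0.226 to 0.276), and dividing RG-like cells had 122 and 35.2 CPM (ratio 0.288, 0.245 to 0.338). Cdk4, the close relative of Cdk6, had 828 and 806 CPM in dividing Eomes cells, and Ccnd2, cyclin D2, had 601 and 596 CPM. The intervals of both ratios included 1 (0.899 to 1.05 for Cdk4, 0.903 to 1.09 for Ccnd2).

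Ccnd1, cyclin D1, and Mycn, a growth-promoting factor, were lower but within 2-fold. Ccnd1 had 176 UMIs in 82 control cells (43.2 CPM) and 24 UMIs in 8 Smo-cKO cells (24.7 CPM), a ratio of 0.571 (0.357 to 0.878). A single Smo-cKO cell held 15 of the 24 UMIs, and the log2 ratio moved between -2.59 and -0.24 over the other settings. Mycn had 44.9 CPM in control and 28.8 CPM in Smo-cKO (ratio 0.641, 0.415 to 0.958).

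The inhibitors of the cycle behaved unlike each other. Cdkn1c, which encodes p57, had 130 UMIs in 90 control cells (31.9 CPM) and 87 UMIs in 32 Smo-cKO cells (89.5 CPM), a ratio of 2.80 (2.11 to 3.71). It was likewise higher in non-dividing Eomes cells (58.4 and 187 CPM) but not in dividing RG-like cells (10.1 and 7.28 CPM). Its log2 ratio of 1.46 was 0.33 when the 7% of cells with the highest Scrublet scores were left out of each library. Among 10 genes of the inhibitor list, it was the only 1 past 2-fold higher, and 0 were past 2-fold lower. Over all genes the shares were 1.06% and 1.77%.

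Cdkn1a encodes p21, a target of p53. In dividing Eomes cells it held 44 UMIs in 16 control cells (10.8 CPM) and 10 UMIs in 6 Smo-cKO cells (10.3 CPM), a ratio of 0.952 (0.427 to 1.92). Its log2 ratio there was not stable, at -1.48 with cells thinned to 4000 UMIs and 1.31 without the 7% of cells with the highest Scrublet scores. Non-dividing Eomes cells had 2.74 CPM in control and 28.7 CPM in Smo-cKO, a ratio of 10.5 (7.20 to 15.7), and dividing RG-like cells had 14.6 and 30.6 CPM, a ratio of 2.10 (1.64 to 2.71). Among the control dividing Eomes cells, 13 of the 44 UMIs lay in 1 cell, and 1 lay in the cells with microglia markers. Of 8 p53 targets that reached 50 UMIs out of 17 listed, 0 were past 2-fold in either direction in dividing Eomes cells, with a median log2 ratio of -0.08.

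**Figure D4:**
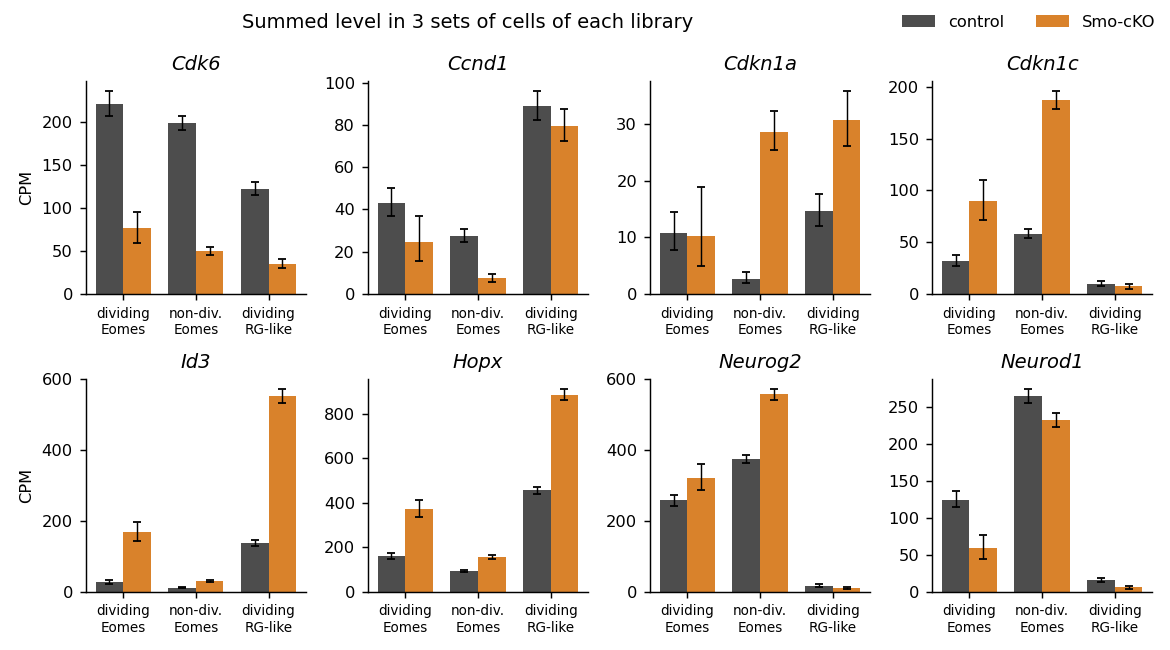
Summed level (y axes, CPM from 0, exact Poisson 95% intervals) of 8 genes in dividing Eomes cells, non-dividing Eomes cells and dividing RG-like cells of control (gray) and Smo-cKO (orange). Cdk6 is lower in Smo-cKO in all 3 sets, Cdkn1a is higher in Smo-cKO in non-dividing Eomes cells (2.74 and 28.7 CPM) and stands at 10.8 and 10.3 CPM in dividing ones, where its log2 ratio ran from -1.48 to 1.31 over the other settings, and Neurod1 is lower in dividing Eomes cells (125 and 58.7 CPM).

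The deleted pathway was low in these cells even in control. Smo, on chromosome 6 from 29735503 to 29761365 in GRCm38, had 23 UMIs in 23 of 481 control cells (5.65 CPM) and 0 in Smo-cKO, at least 1.83-fold lower. Its share of cells with a UMI, 4.78% in control, compares with 0.841% of control PyN-like cells. Ptch1, the SHH receptor and a target of the pathway, had 58 UMIs in 46 control cells (14.2 CPM) and 1 UMI in Smo-cKO (1.03 CPM), a ratio of 0.0723 (0.00180 to 0.419). Gli1, the target and effector, had 11 UMIs in control and 0 in Smo-cKO, where so few cells leave no fold to give. Control dividing RG-like cells had 13.5 CPM of Smo and 30.7 CPM of Ptch1.

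Of 7 SHH pathway genes with at least 50 UMIs, 1 (Ptch1) was past 2-fold lower and 0 higher (1.77% and 1.06% over all genes). The median log2 ratio of the 7 was 0.52. Cdon, a coreceptor of Ptch1, had 50.3 CPM in control and 98.8 CPM in Smo-cKO (ratio 1.96, 1.52 to 2.51). Gas1, another coreceptor, had 128 and 189 CPM (ratio 1.47, 1.24 to 1.75), and Gli3, the factor whose short form represses SHH targets, had 46.4 and 66.9 CPM (ratio 1.44, 1.07 to 1.92). Gli2 had 14.7 and 10.3 CPM (ratio 0.698, 0.319 to 1.38).

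Among BMP genes, the ligand Bmp7 was barely present, with 7 UMIs in 7 control cells and 9 UMIs in 8 Smo-cKO cells (1.72 and 9.26 CPM, ratio 5.39, 1.79 to 17.0). The receptor Bmpr1a had 57.7 and 64.8 CPM, and the shared mediator Smad4 had 111 and 98.8 CPM. Of the 11 BMP pathway genes with at least 50 UMIs, 2 were past 2-fold higher and 0 lower (1.06% and 1.77% over all genes). Both of the higher genes were on the target side.

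Id3, a helix-loop-helix inhibitor induced by BMP signals, had 112 UMIs in 45 control cells (27.5 CPM) and 164 UMIs in 26 Smo-cKO cells (169 CPM), a ratio of 6.14 (4.80 to 7.87). The most loaded Smo-cKO cell held 35 of the UMIs, and without the 7% of cells with the highest Scrublet scores the log2 ratio of 2.57 became 0.91. Hopx, a homeodomain-only protein of RG cells, had 649 UMIs in 149 control cells (159 CPM) and 362 UMIs in 48 Smo-cKO cells (373 CPM), a ratio of 2.34 (2.05 to 2.66). Hopx went under 2-fold, to a log2 ratio of 0.71, in cells with at least 3 Eomes UMIs, and to 0.95 without the 7% of cells with the highest Scrublet scores. Both genes were higher still in dividing RG-like cells, where Id3 had 137 and 552 CPM and Hopx 455 and 885 CPM. The related genes Id1 (ratio 1.25, 0.932 to 1.65), Id2 (1.37, 1.19 to 1.57) and Id4 (1.11, 0.791 to 1.54) were within 2-fold.

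Genes of the neurogenic series did not share a direction. Neurog2 had 1050 UMIs in 323 control cells (258 CPM) and 313 UMIs in 69 Smo-cKO cells (322 CPM), a ratio of 1.25 (1.10 to 1.42). Insm1 had 394 and 474 CPM (ratio 1.20, 1.08 to 1.34), and Hes6, an antagonist of Hes1, had 334 and 465 CPM (ratio 1.39, 1.25 to 1.55). All 3 were slightly higher in Smo-cKO and within 2-fold. Neurog1, the close relative of Neurog2, was scarce, with 28 UMIs in 25 control cells and 2 UMIs in 2 Smo-cKO cells (ratio 0.299, 0.0346 to 1.19).

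Neurod1, which follows Neurog2, had 507 UMIs in 236 control cells (125 CPM) and 57 UMIs in 28 Smo-cKO cells (58.7 CPM), a ratio of 0.471 (0.352 to 0.620). Non-dividing Eomes cells had 264 and 232 CPM of Neurod1 (ratio 0.876, 0.829 to 0.926), so the gap between libraries was wider in the dividing cells, a difference that was not tested. Neurod4 had 101 UMIs in control (24.8 CPM) and 9 UMIs in Smo-cKO (9.26 CPM), a ratio of 0.373 (0.166 to 0.737), against 23.6 and 19.9 CPM in non-dividing cells. Stmn2, a microtubule regulator of neurons, had 96 UMIs in 38 control cells and 7 UMIs in 3 Smo-cKO cells, a ratio of 0.306 (0.120 to 0.654), with 15 of the control UMIs in 1 cell and a log2 ratio of -0.93 without the 5% of cells with the most UMIs. Neurod1 fell short of 2-fold in 4 of the 15 other settings. Among them, its log2 ratio was -0.88 in cells with at least 4 of the 7 mitotic genes. It was -0.97 without the control cells that Scrublet marked.

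Most genes of these lists stayed within 2-fold. Of 16 IPC and neurogenic genes 1 (Neurod4) was past 2-fold lower and 0 higher, with a median log2 ratio of -0.16. Of 22 pyramidal neuron genes 2 (Neurod1 and Stmn2) were lower and 0 higher, with a median of -0.11. Over all genes 1.77% were lower and 1.06% higher, and the counts of 1 and 2 genes are small. Neurod2 went the other way from Neurod1, with 82.8 CPM in control and 137 CPM in Smo-cKO (ratio 1.65, 1.34 to 2.03). Tbr1 had 63.6 and 41.2 CPM (ratio 0.647, 0.452 to 0.906), Sstr2, a somatostatin receptor of IPCs, had 153 and 103 CPM (ratio 0.674, 0.540 to 0.833), and Neurod6 had 385 and 366 CPM.

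**Figure D5:**
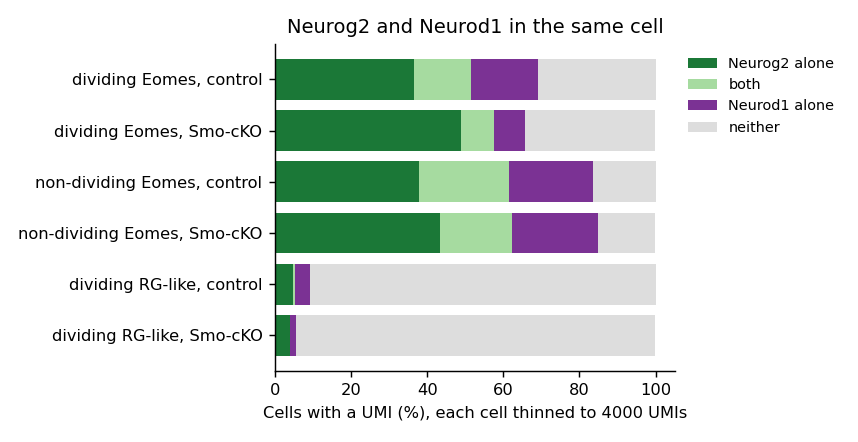
Share of cells (x axis, %) with a UMI of Neurog2 alone, of both Neurog2 and Neurod1, of Neurod1 alone or of neither, with every cell thinned to 4000 UMIs, for 3 sets of cells in each library (rows). In dividing Eomes cells Neurog2 alone takes 36.4% of control and 48.8% of Smo-cKO cells, and Neurod1 alone takes 17.5% and 7.95%.

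Neurog2 and Neurod1 were also counted cell by cell, from the same UMIs as the summed levels and so not independent of them. Among control dividing Eomes cells, 175 held Neurog2 without Neurod1, 148 held both and 88 held Neurod1 alone. Among the 93 Smo-cKO cells the numbers were 49, 20 and 8. With cells thinned to 4000 UMIs, both genes were found in 15.1% of control and 8.81% of Smo-cKO dividing Eomes cells, against 23.6% and 19.0% of non-dividing Eomes cells. In dividing RG-like cells neither gene was found in 90.8% and 94.5%. Smo-cKO dividing Eomes cells with 3 or 4 of the mitotic genes had 614 CPM of Neurog2 against 350 CPM in control, those with 5 or 6 had 191 against 286 CPM, and those with all 7 had 255 against 209 CPM.

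Taken over all dividing Eomes cells, RG and progenitor genes leaned higher in Smo-cKO. Of 20 genes, 15 were above 0, with a median log2 ratio of 0.39 against 0.01 over all genes. Past 2-fold, 1 (Hopx) was higher and 0 were lower (1.06% and 1.77% over all genes). The gap was uneven over Eomes levels. At 2 Eomes UMIs the 8 RG markers summed to 1011 CPM in control and 1943 CPM in Smo-cKO. They came to 1068 and 1241 CPM at 3 Eomes UMIs, 1210 and 1327 CPM at 4, and 1366 and 1318 CPM at 5 to 7. At 8 or more they came to 1546 and 2519 CPM, from 43 and 7 cells. Aldoc, a glycolytic enzyme of RG cells and astrocytes, had 145 CPM in control and 275 CPM in Smo-cKO (ratio 1.89, 1.63 to 2.19). Hes5, a Notch target, had 52.6 and 99.8 CPM (ratio 1.90, 1.48 to 2.43), and Fabp7, a fatty acid carrier of RG cells, had 4283 and 5893 CPM (ratio 1.38, 1.34 to 1.42). Slc1a3, a glutamate transporter of RG cells, went the other way, with 227 and 157 CPM (ratio 0.692, 0.580 to 0.822), and Pax6, Sox2 and Sox9 had ratios between 0.894 and 1.01.

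The share of Smo-cKO dividing Eomes cells with at least 4 RG markers was likewise above that in control, and these cells were deeper. The Notch list had 0 of 13 genes past 2-fold, with a median log2 ratio of 0.15. Dll1, a Notch ligand of neurogenic progenitors, had 21.4 CPM in control and 36.0 CPM in Smo-cKO (ratio 1.69, 1.10 to 2.52), and Notch1 had 107 and 134 CPM.

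Genes of the glial lineage were few. Egfr, whose receptor is needed for cortical gliogenesis, had 86 UMIs in 59 control cells (21.1 CPM) and 9 UMIs in 7 Smo-cKO cells (9.26 CPM), a ratio of 0.439 (0.194 to 0.872), and it was past 2-fold in 9 of the 15 other settings. Its log2 ratio of -1.11 was -0.06 without the 7% of cells with the highest Scrublet scores and -0.75 without the marked control cells. It turned to 0.21 as a mean of CPM over cells. Sparcl1, a matrix protein of RG cells and astrocytes, had 114 UMIs in 60 control cells and 1 UMI in Smo-cKO, a ratio of 0.0368 (0.000923 to 0.209). Both genes were also lower in dividing RG-like cells, where Egfr had 52.8 and 15.9 CPM and Sparcl1 99.3 and 17.0 CPM. Of the 8 bMIPC and glial genes compared (bMIPCs are basal multipotent intermediate progenitors of glia and interneurons), these 2 were past 2-fold lower and 0 higher. Over all genes the shares were 1.77% and 1.06%.

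Olig1 and Olig2 were each found in 3 Smo-cKO dividing Eomes cells, and in 25 and 40 control cells. Olig2 had 22.6 CPM in control and 13.4 CPM in Smo-cKO (ratio 0.592, 0.304 to 1.06).

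Immediate early genes were mostly lower in Smo-cKO. Of 7 genes with at least 50 UMIs, 3 were past 2-fold lower in Smo-cKO and 0 higher (1.77% and 1.06% over all genes). Their median log2 ratio was -0.96. Egr1, an activity and growth factor response gene, had 856 UMIs in 267 control cells (210 CPM) and 71 UMIs in 26 Smo-cKO cells (73.1 CPM), a ratio of 0.348 (0.269 to 0.443). Ier2 had 110 and 49.4 CPM (ratio 0.450, 0.327 to 0.607) and Fos had 86.2 and 42.2 CPM (ratio 0.490, 0.345 to 0.678), while Jund had 291 and 353 CPM (ratio 1.22, 1.07 to 1.37). Fos was within 2-fold in 4 of the 15 other settings, at its weakest with a log2 ratio of -0.75 without the control cells that Scrublet marked. In non-dividing Eomes cells Egr1 had 244 and 124 CPM. These genes also answer to dissociation and sorting, and with 1 preparation per genotype the preparation and the genotype cannot be told apart.

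The remaining lists stayed within 2-fold. Of 11 WNT genes, 7 cortical patterning genes, 11 glycolysis genes and 82 ribosomal protein genes, 0 were past it, with median log2 ratios of -0.10, 0.02, 0.17 and -0.14. Emx2, a patterning factor of the medial cortex, had 44.0 CPM in control and 81.3 CPM in Smo-cKO (ratio 1.85, 1.40 to 2.42). Sfrp1, a secreted WNT inhibitor, had 246 and 389 CPM (ratio 1.58, 1.40 to 1.78), and Lhx2, which keeps cortical identity, had a ratio of 1.21 (1.09 to 1.34).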

How the data were processed

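The deposited mouse table holds UMI counts of 17170 genes in the cells of both libraries, which the authors had not normalized. The submitters' processing notes name Cell Ranger, Seurat 3 and mm10. Ferret counts were not used here. The members, gene lists and markers were chosen with earlier results of these data known. Of 298 listed genes, 2 were not in the table. Cells were classed by UMI thresholds (scipy 1.17.1 and numpy 2.4.6 under python 3.11.15), and raw UMIs were summed over the cells of a class and library and given as CPM. Genes compared had at least 50 UMIs over all the cells of a comparison, both libraries together. They counted as past 2-fold with 1 CPM added, and the named genes are the 10 highest and 10 lowest of each comparison, plus listed genes. Intervals are exact (Clopper-Pearson, Poisson, conditional binomial) at 95%, for counting error alone. Since each genotype had 1 library, no p-value was computed. Doublets were scored with Scrublet in scanpy 1.11.5 and kept. Calculations were tested on simulated data. Coordinates come from the GENCODE annotation of GRCm38, which held 16568 of the 17170 symbols. Promoter motifs were not analysed here. Alternatives covered the rule, depth, scaling, filters, doublets and sex-linked transcripts.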

Additional observations from a re-analysis of the deposited data

Results flagged for a closer look

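Among the listed and named genes, 8 differed past 2-fold between dividing and non-dividing Eomes cells in opposite directions in the 2 libraries. None of these differences between libraries was tested. Cdkn1a had a log2 ratio of dividing over non-dividing of 1.66 in control and -1.39 in Smo-cKO, from 44 and 10 UMIs in the dividing cells. Dqx1 had 1.63 in control and -3.59 in Smo-cKO, with most of its control UMIs in 1 cell. The other 6 are genes high in microglia. Their log2 ratios, control first, came to 1.33 and -1.38 for Aif1, 2.61 and -1.19 for C1qa, 3.69 and -1.19 for Ccl12, 1.37 and -2.45 for Maf, 4.44 and -1.21 for Spp1, and 1.57 and -2.34 for Tyrobp. The 5 control dividing Eomes cells with at least 4 microglia markers held 845 of the 852 UMIs of the microglia marker list there but 71 of the 109 UMIs of Maf, which is not on that list. Smo-cKO had 0 such cells. The log2 ratio of Cdkn1a between libraries in dividing Eomes cells moved from -1.48 to 1.31 over the other settings.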

How the results depend on the processing

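In the 12 other settings tried, the share of Eomes cells that divide stayed lower in Smo-cKO (-9.40 percentage points as reported; -10.8 to -6.52), at control to Smo-cKO ratios from 2.47 to 4.88, and so did the share of all cells (-3.29 points; -4.78 to -1.64). Beyond the counting interval of the reported difference, the first was -7.63 points without the 5% of cells with the most UMIs, -6.83 without the cells Scrublet marked and -6.52 with cells thinned to 2900 UMIs. Leaving out the marked cells took 129 control and 0 Smo-cKO dividing Eomes cells. The second was -4.78 with at least 1 and -2.35 with at least 3 Eomes UMIs, -3.83 with at least 2 of the 7 genes, -2.57 without the 5% of cells with the most UMIs, -3.80 in cells with a Y-linked UMI and no Xist UMI, -2.68 without the 7% of cells with the highest Scrublet scores, -2.31 without the cells Scrublet marked and -1.64 when thinned. Genes past 2-fold between libraries numbered 227 as reported, 529 with at least 20 UMIs per gene, 37 with at least 200, 116 with 5 CPM added and 148 in cells with a Y-linked UMI and no Xist UMI, and between 197 and 312 in the others. Those past 2-fold between dividing and non-dividing cells numbered 773 as reported, 494 with at least 200 UMIs per gene, 503 with 5 CPM added and between 619 and 921 in the others. The settings on sex-linked UMIs and on Scrublet were chosen after seeing the data. Log2 ratios changed sign for P2rx4 (-4.24 with at least 3 Eomes UMIs, -4.11 without the cells with the most UMIs, -1.71 without the highest Scrublet scores), Gm26737 (-4.01 without the highest Scrublet scores), Egfr (0.21 as a mean of CPM over cells), Spp1 (2.64 without the cells with the most UMIs, 2.03 without cells with markers of inhibitory neurons or microglia), C1qb (0.57 and 0.21 in the same settings) and C1qc (1.03 in the latter); the cause was not tested. Of the 227 genes, 118 were shared, in the same direction, with at least 3 Eomes UMIs, 54 when thinned to 4000 UMIs and 101 without the highest Scrublet scores. Without the 5% of cells with the most UMIs 80 were shared, and in cells with a Y-linked UMI and no Xist UMI 92. Median log2 ratios of the RG list ranged from 0.20 to 0.88, of immediate early genes from -1.02 to -0.45, of S phase from -0.33 to -0.03 and of G2 and mitosis from -0.01 to 0.32. No paired analysis was possible because each genotype has 1 library. The 93 Smo-cKO cells set the depth of every comparison between libraries.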
